A study of Homo sapiens with 10 samples.

Results

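Accessible chromatin around 10 T cell surface and signalling genes was examined in the human T lymphoblast line CCRF-CEM. The genes were CD3E, CD3D, CD3G, CD2, CD4, CD5, CD7, LCK, IL7R and PTCRA. They were chosen by role and not by their measured values, although earlier results of these data were known. Their peaks are those touching 8 fixed intervals on build hg19 with 5 kb added to either side. CD3E, CD3D and CD3G are neighbours and share 1 interval. Merging the peaks of all 10 libraries gave 22 regions in these intervals, out of 35505 in all. The assay was ATAC-seq. Its transposase inserts adapters into exposed DNA, so that sequenced fragments pile up at open chromatin.

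CCRF-CEM is an established cell line derived from a T cell leukemia. The parental cells were wild-type, and the second line was a knockout of SLFN11, a protein of the response to replication stress. Each was treated with DMSO (the solvent), with 100 nM prexasertib, an inhibitor of the checkpoint kinase CHK1, for 2, 4 or 6 h, or with 100 nM camptothecin, which traps topoisomerase I on DNA, for 4 h. There was 1 library for each of the 10 combinations of genotype and treatment, with no replicates, so every difference below is between 2 single libraries, was not set against a spread between replicates and carries no p-value. The labels do not say whether the knockout cells were 1 clone, and the peak lists were not used to check the loss of SLFN11. Every treated library was compared with the single DMSO library of its genotype, so the 4 comparisons of a genotype share that library.

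A T cell recognises antigen through its receptor, whose signal is carried into the cell by the CD3 chains. The kinase LCK, which binds the co-receptors CD4 and CD8, phosphorylates those chains. CD2, CD5 and CD7 are surface proteins of the T lineage that modulate adhesion and signal strength, IL7R is the receptor chain through which interleukin 7 sustains early T cells, and PTCRA encodes the invariant chain of the receptor that precursors display before their own alpha chain is rearranged. Accessible DNA near a gene is not a measure of its expression.

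The peaks are on hg19, and no hg19 sequence or annotation was used here, so regions are numbered from left to right in each interval and placed by their distance from its start. They were not assigned to exons, introns or untranslated regions. To show the DNA that lies at the starts of these genes, the 250 bases before the start were taken from RefSeq on GRCh38.p14, where 5 of the 10 genes had 6 entries, 2 of them for LCK. Their coordinates belong to that build and cannot be set beside the hg19 positions of the peaks. Of these, 5 are printed because they hold the short words searched for. Each reads 5′ to 3′ on the strand of the gene, with the last base next to the start, and capitals mark matches on either strand. The words searched were AGGAAG, bound by factors of the ETS family, TGTGGT, bound by RUNX factors, AGATAA, bound by the GATA family, CAGCTG, which is known as an E-box, and CTTTGT, bound by factors of the TCF family.
CD3D, chr11:118342706-118342955, minus strand: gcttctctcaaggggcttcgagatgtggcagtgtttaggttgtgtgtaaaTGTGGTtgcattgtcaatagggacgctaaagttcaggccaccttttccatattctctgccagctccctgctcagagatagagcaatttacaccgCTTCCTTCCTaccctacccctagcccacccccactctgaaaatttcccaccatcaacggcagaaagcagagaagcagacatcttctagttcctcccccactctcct
LCK start 1, chr1:32251015-32251264, plus strand: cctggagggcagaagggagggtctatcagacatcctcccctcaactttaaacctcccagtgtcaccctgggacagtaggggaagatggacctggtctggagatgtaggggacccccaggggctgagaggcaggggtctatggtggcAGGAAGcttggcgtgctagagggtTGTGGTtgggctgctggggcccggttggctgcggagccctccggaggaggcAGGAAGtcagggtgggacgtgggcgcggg
LCK start 2, chr1:32273871-32274120, plus strand: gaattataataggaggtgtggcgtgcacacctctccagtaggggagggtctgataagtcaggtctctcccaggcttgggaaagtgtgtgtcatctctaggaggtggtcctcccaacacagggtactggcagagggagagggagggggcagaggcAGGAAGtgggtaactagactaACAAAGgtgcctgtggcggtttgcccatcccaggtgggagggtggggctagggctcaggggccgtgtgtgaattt
IL7R, chr5:35856641-35856890, plus strand: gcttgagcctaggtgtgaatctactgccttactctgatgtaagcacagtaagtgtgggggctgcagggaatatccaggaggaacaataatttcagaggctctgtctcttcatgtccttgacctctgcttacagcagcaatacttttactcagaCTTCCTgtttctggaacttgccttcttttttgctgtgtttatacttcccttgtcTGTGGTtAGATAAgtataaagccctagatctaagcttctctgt
PTCRA, chr6:42915803-42916052, plus strand: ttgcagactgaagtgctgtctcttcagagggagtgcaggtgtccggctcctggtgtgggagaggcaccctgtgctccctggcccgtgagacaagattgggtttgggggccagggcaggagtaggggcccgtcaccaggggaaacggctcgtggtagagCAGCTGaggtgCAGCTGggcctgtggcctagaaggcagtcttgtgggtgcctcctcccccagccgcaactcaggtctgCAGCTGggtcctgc

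The ETS word stood in 4 of the 6 sequences, the RUNX word in 3, and the GATA, E-box and TCF words in 1 each. Over all 35116 promoters of the same length the shares with a match were 28.7% for the ETS word, 11% for RUNX, 9.17% for GATA, 14% for the E-box and 13.7% for TCF. In CD3D both ETS matches overlap, in a run that begins 106 bases before the start. In IL7R the RUNX match ends 38 bases before the start and the GATA match begins 36 bases before it. PTCRA had 3 E-box matches, beginning 92, 81 and 14 bases before the start, and no other match. The sequence of CD2, at chr1:116754180-116754429, held none of the 5 words. CpG was sparse in these sequences. The ratio of observed to expected CpG was 0.267 in CD3D, 0.349 in CD2, 0.298 and 0.165 at the first and second LCK start, 0.239 in PTCRA and 0.0 in IL7R, against a median of 0.558 over all promoters. These matches are letters in a window and were not tested as binding sites.

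The depth of a library is given by its genome-wide background pileup, the fragment pileup that the peak caller used as the smallest background. It ran from 1.33 to 1.63 in the parental and from 1.59 to 2.1 in the knockout libraries, lowest in the parental 4 h prexasertib library, whose raw reads are recorded as truncated. Between 15447 and 23773 regions were called per library. Summit height is the largest pileup over the summits of a region divided by this background. Intervals beside a ratio of heights are exact 95% intervals from the 2 pileups, and they cover counting error only. In a bulk library, a region open in fewer cells and one less open in each cell cannot be told apart.

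Of the 22 regions, 8 were called in all 10 libraries, or 36.4%, where the share over all regions was 32.7%. They were CD3 regions 1, 2 and 6, CD2 region 2, CD5 region 2, LCK regions 2 and 3 and PTCRA region 2. Another 3 were called in a single library, or 13.6% against 26.1% of all regions. With DMSO 10 of the 22 were called in parental and 18 in knockout cells. The parental 2, 4 and 6 h prexasertib libraries called 15, 15 and 18 and the camptothecin library 16. In knockout cells these counts were 19, 14 and 18 with prexasertib and 14 with camptothecin. The parental DMSO library thus called the fewest of these regions and the knockout 2 h prexasertib library the most. As shares, 45.5% of the 22 regions against 44.2% of all regions were called with DMSO in parental cells, and 81.8% against 56.2% in knockout cells. The treated parental libraries called 68.2%, 68.2%, 81.8% and 72.7% of the 22, from 2 h to camptothecin, against 43.5%, 49.5%, 64.3% and 60.4% of all regions. For the treated knockout libraries these shares were 86.4%, 63.6%, 81.8% and 63.6% against 67%, 59.6%, 64.7% and 52.4%, so the knockout 2 h library had the largest share of all regions too.

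**Figure D1:**
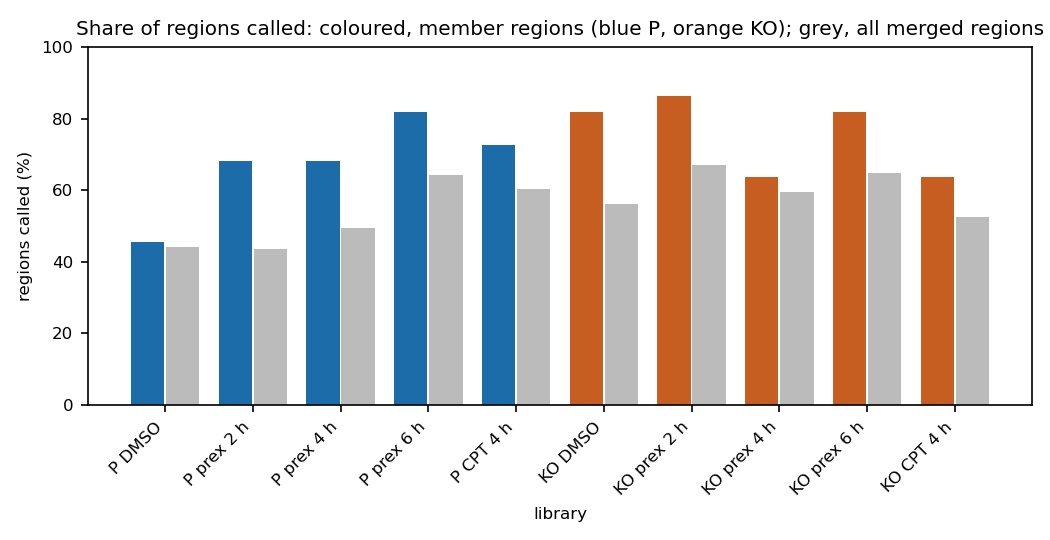
Share of regions called in each library, in percent on the vertical axis, for the 22 regions near the T cell genes (blue, parental; orange, knockout) and for all 35505 regions (grey). The coloured bar is lowest in the parental DMSO library at 45.5% and highest in the knockout 2 h prexasertib library at 86.4%; with DMSO in parental cells the coloured and the grey bar differ by little.

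In 12 of the 22 regions the deposited −log10 q reached 10 in at least 1 library, and in the others it did not. The share of all regions that reached it was not computed, so this count does not set the 22 apart. Over the 8 regions called everywhere, the median height was below that of all always-called regions in each of the 10 libraries, for example 13.2 against 18.4 with DMSO in parental cells, 29.2 against 40.0 after 6 h of prexasertib and 19.8 against 27.1 after 2 h of prexasertib in knockout cells. Of the 8, PTCRA region 2 was the only one above that median in all 10 libraries. CD3 regions 2 and 6 and LCK region 3 were above it in 2 or 3 libraries each. With the intervals taken without the added 5 kb, 15 of the 22 regions remained. The other 7, which include 3 of the 8 called everywhere, lay in the flanks and were not assigned to a gene.

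**Figure D2:**
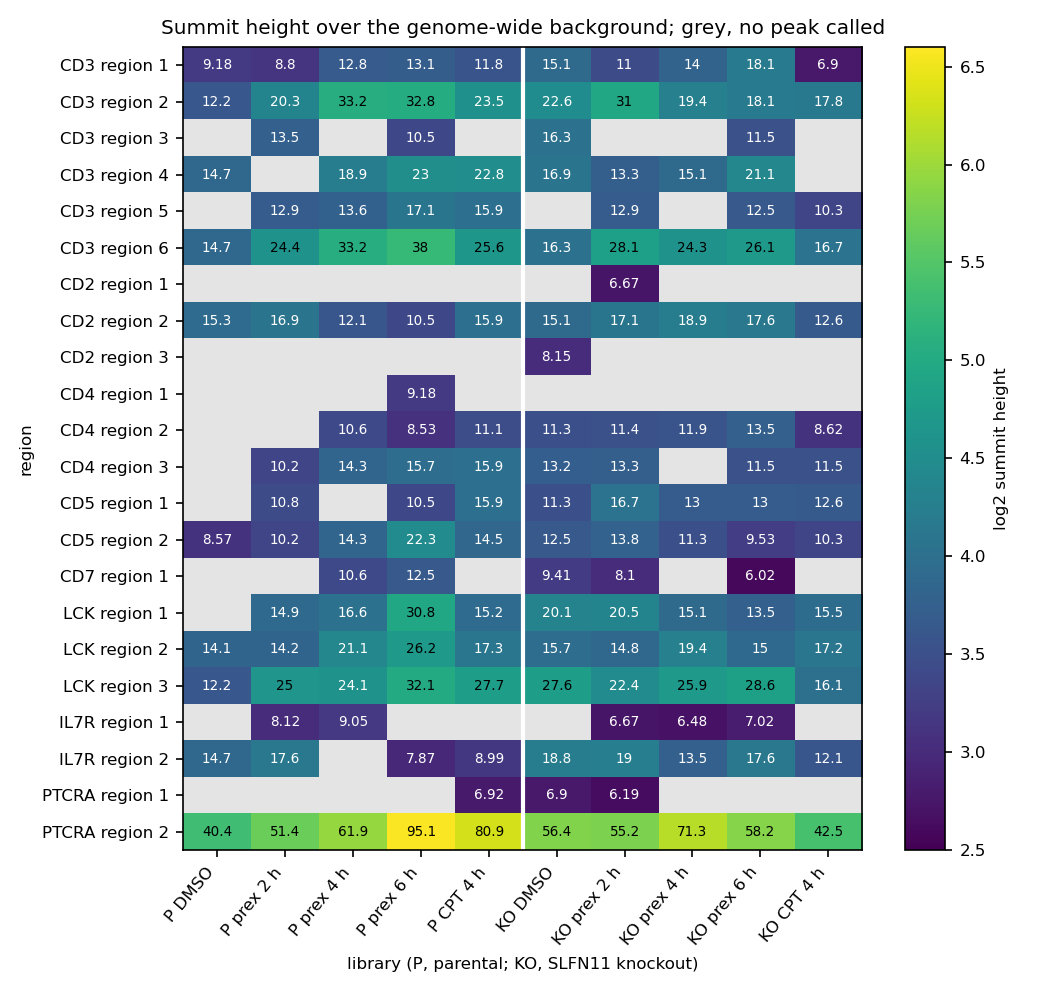
Summit height of the 22 regions (rows) in the 10 libraries (columns; P, parental; KO, SLFN11 knockout; prex, prexasertib; CPT, camptothecin), with the colour on a log2 scale, the height written in each cell and grey where no peak was called. The bottom row, PTCRA region 2, is the highest in every library, from 40.4 to 95.1, and the parental DMSO column has the most grey cells.

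The CD3 chains are the signalling part of the T cell receptor complex. Their interval, chr11:118175000-118226000, held 6 regions, of which 3 were called in every library. CD3 region 1 lies at chr11:118174942-118175982 and spans the left edge of the interval, the CD3E side. Its summit pileup in parental cells was 15 with DMSO, 13 at 2 h, 17 at 4 h and 20 at 6 h of prexasertib, and 17 with camptothecin. In knockout cells it was 24 with DMSO, 23, 26 and 36 with prexasertib and 12 with camptothecin. The knockout camptothecin library was the lowest of all 10 and the knockout 6 h library the highest. Its height with camptothecin in knockout cells was 0.458 times that with DMSO (interval 0.209 to 0.953), and 0.596% of the regions called in both libraries had a smaller ratio. Its peak was nevertheless the widest there, 922 bp, against 736 bp with DMSO. The parental peak was 299 bp wide with DMSO and between 463 and 742 bp in the 4 treated libraries. The position of its highest summit varied by 593 bp over the 10 libraries, more than the median of 158 bp over all regions called everywhere.

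CD3 region 2, at chr11:118186847-118187915, lies 11.8 to 12.9 kb into the interval. Its parental pileup was 20 with DMSO, 30 at 2 h, 44 at 4 h and 50 at 6 h of prexasertib, and 34 with camptothecin. The knockout pileup was 36 with DMSO, 65, 36 and 36 with prexasertib and 31 with camptothecin. The parental DMSO value was the lowest of the 10, and all 4 treated parental values lay above it. Its height was 2.71-fold that with DMSO after 4 h (1.57 to 4.86), 2.68-fold after 6 h (1.57 to 4.75) and 1.92-fold with camptothecin (1.07 to 3.52). The 2 h ratio was 1.66, with an interval from 0.911 to 3.08. None of the knockout ratios had an interval that left out 1, the largest being 1.37 after 2 h (0.899 to 2.12). With DMSO the parental height was 0.542 times the knockout height (0.297 to 0.962). After 4 and 6 h of prexasertib the order was the opposite, with parental heights 1.71-fold (1.07 to 2.73) and 1.82-fold (1.16 to 2.87) those in knockout cells. The highest summit of this region stayed within 47 bp over the 10 libraries, and 95.4% of always-called regions had a wider span.

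CD3 regions 3, 4 and 5 lie 34.4, 38.2 and 39.8 kb into the interval. CD3D and CD3G are transcribed away from each other from nearby starts, and these 3 regions were not assigned to either gene. CD3 region 3, at chr11:118209356-118209814, was called in 4 libraries, at pileups of 20 and 16 in the parental 2 h and 6 h libraries and of 26 and 23 in the knockout DMSO and 6 h libraries. CD3 region 4, at chr11:118213214-118213756, was called in 8 libraries with pileups from 24 to 42, and not in the parental 2 h prexasertib or the knockout camptothecin library. CD3 region 5, at chr11:118214825-118215296, was called in neither DMSO library. It was called in all 4 treated parental libraries, at pileups of 19, 18 and 26 after 2, 4 and 6 h of prexasertib and 23 with camptothecin. In knockout cells it was called at 27 and 25 after 2 and 6 h and at 18 with camptothecin, and not at 4 h. All 7 calls were weak, with −log10 q from 2.77 to 6.45.

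CD3 region 6, at chr11:118229875-118230633, lies past the right end of the interval, on the side where UBE4A follows CD3G in the gene order of GRCh38.p14. It was called in every library. Its parental pileup was 24 with DMSO, 36 at 2 h, 44 at 4 h and 58 at 6 h of prexasertib, and 37 with camptothecin, and the knockout pileup was 26, 59, 45, 52 and 29 in the same order. Both DMSO libraries had the lowest value of their genotype. The height was 2.26-fold that with DMSO after 4 h (1.34 to 3.89) and 2.59-fold after 6 h (1.58 to 4.36) in parental cells. In knockout cells it was 1.72-fold after 2 h (1.07 to 2.85), where 98.0% of the regions called in both libraries had a smaller ratio, and 1.60-fold after 6 h (0.981 to 2.67). With camptothecin it was 1.74-fold in parental (1.01 to 3.04) and 1.02-fold in knockout cells (0.581 to 1.81).

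**Figure D3:**
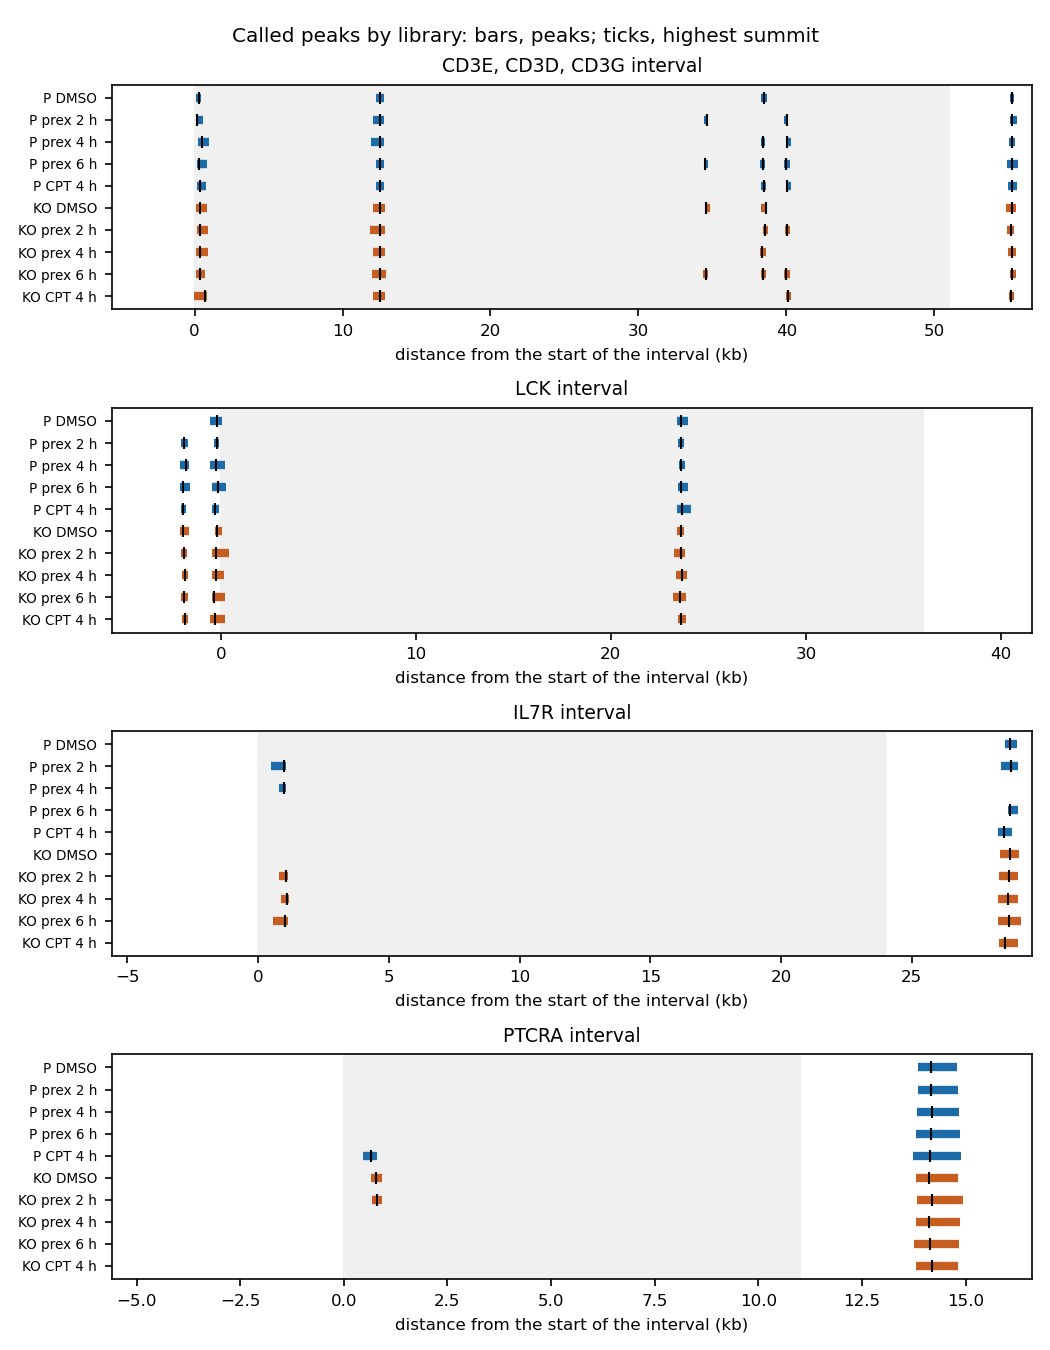
Called peaks (bars; blue, parental; orange, knockout) with the highest summit of each region (black tick) in the CD3, LCK, IL7R and PTCRA intervals, by distance in kb from the start of the interval; the interval without its added 5 kb is shaded. The summits of the always-called CD3 region 2, near 12 kb, LCK region 3, near 24 kb, and PTCRA region 2, near 14 kb, line up over the 10 libraries, while IL7R region 2 and PTCRA region 2 lie outside the shaded interval.

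CD2, the adhesion receptor that binds CD58 on other cells, had 3 regions in and beside chr1:117297000-117312000. CD2 region 1, at chr1:117297004-117297305, lies at the start of the interval and was called in the knockout 2 h prexasertib library only, at a pileup of 14 and a −log10 q of 3.42. CD2 region 3, at chr1:117312996-117313220, was called in the knockout DMSO library only, at 13 and 2.08. Both are close to the smallest −log10 q of the lists, 2, and no region near the start of CD2 was called in parental cells.

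CD2 region 2, at chr1:117311691-117312771, spans the right end of the interval and was called in every library. Its parental pileup was 25 with DMSO, 25 at 2 h, 16 at 4 h and 16 at 6 h of prexasertib, and 23 with camptothecin, and the knockout pileup was 24, 36, 35, 35 and 22 in the same order. The parental 4 and 6 h libraries were the lowest of the 10. Its parental height was 15.3 with DMSO and 10.5 after 6 h, a ratio of 0.686 (0.342 to 1.34). Of the regions called in both libraries, 2.04% had a smaller ratio, although the interval of this one includes 1. Among the 8 always-called regions it was the only one that was lower after 4 and after 6 h of prexasertib than with DMSO in parental cells. In knockout cells it was 1.26-fold after 4 h (0.726 to 2.21) and 1.17-fold after 6 h (0.674 to 2.05). Parental over knockout, the height ratio was 0.598 after 6 h (0.309 to 1.11).

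CD4 is the co-receptor for antigen shown by class II molecules. No region of its interval, chr12:6898000-6930000, was called in the parental DMSO library, the only one of the 10 with none. CD4 region 2, at chr12:6901147-6902249, was called in 8 libraries. It was absent from the parental DMSO and 2 h libraries, stood at pileups of 14, 13 and 16 in the parental 4 h, 6 h and camptothecin libraries, and at 18, 24, 22, 27 and 15 in the knockout libraries from DMSO to camptothecin. Its width varied widely, from 177 bp with camptothecin in parental cells to 1072 bp after 6 h of prexasertib in knockout cells. CD4 region 3, at chr12:6930434-6931205, lies past the interval, on the side of GPR162. It was called in all 4 treated parental libraries, at pileups of 15, 19, 24 and 23, and not with DMSO. In knockout cells it stood at 21 with DMSO, 28 and 23 after 2 and 6 h and 20 with camptothecin, and was missing at 4 h. CD4 region 1, at chr12:6899885-6900044, was called in the parental 6 h library only, at a pileup of 14 and a −log10 q of 2.33.

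CD5 dampens the signal of the antigen receptor. CD5 region 1, at chr11:60869439-60870936, lies 0.439 to 1.94 kb into the interval. It was called in all 5 knockout libraries, at pileups of 18 with DMSO, 35, 24 and 26 with prexasertib and 22 with camptothecin. In parental cells it was called at 16 after 2 and 6 h of prexasertib and at 23 with camptothecin, and with neither DMSO nor 4 h of prexasertib. The strongest call had a −log10 q of 16.3, in the knockout 2 h library. CD5 region 2, at chr11:60896854-60897703, lies past the interval on the side of VPS37C and was called everywhere. Its parental pileup was 14 with DMSO, 15, 19 and 34 after 2, 4 and 6 h and 21 with camptothecin, and the knockout pileup was 20, 29, 21, 19 and 18. The parental 6 h library stood above the other 9. Its height there was 2.60-fold that with DMSO (1.36 to 5.25) and 2.34-fold that of knockout cells at 6 h (1.30 to 4.34), a ratio larger than in 95.5% of the regions called in both.

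CD7 is an early surface marker of the T lineage. Its interval, chr17:80272000-80276000, held 1 region, at chr17:80274988-80275567, called in 5 libraries. The pileups were 14 and 19 in the parental 4 h and 6 h libraries and 15, 17 and 12 in the knockout DMSO, 2 h and 6 h libraries. No camptothecin library called it, and the −log10 q lay between 2.03 and 6.08. At such values a missing call is not evidence of closed chromatin.

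LCK is the kinase that starts signalling at the receptor, and it is known to be transcribed from a distal and a proximal promoter. LCK region 1, at chr1:32713885-32714413, lies left of the interval, on the side of FAM167B. Its pileup was 22, 22 and 47 after 2, 4 and 6 h of prexasertib and 22 with camptothecin in parental cells, with no call with DMSO, and 32, 43, 28, 27 and 27 in the knockout libraries. The parental 6 h library was the highest of the 9 that called it, at a −log10 q of 20.1, and its height was 2.28-fold that of the knockout 6 h library (1.39 to 3.80). LCK region 2, at chr1:32715437-32716392, spans the start of the interval and was called everywhere, at 23, 21, 28, 40 and 25 in parental and 25, 31, 36, 30 and 30 in knockout cells. After 6 h of prexasertib its parental height was 1.86-fold that with DMSO (1.09 to 3.26), and 45.9% of the regions called in both libraries had a smaller ratio. By the deposited fold its log2 change was only 0.15, with a local background of 7.29 against 4.38 with DMSO. The other 7 ratios of treated to DMSO height at this region had intervals that include 1.

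LCK region 3, at chr1:32739166-32740118, lies 23.2 to 24.1 kb into the interval. The parental pileup was 20 with DMSO, 37 at 2 h, 32 at 4 h and 49 at 6 h of prexasertib, and 40 with camptothecin. The knockout pileup was 44 with DMSO, 47, 48 and 57 with prexasertib and 28 with camptothecin. The parental DMSO library was the lowest of the 10 and the knockout camptothecin library the next lowest. All 4 parental ratios to DMSO had intervals above 1. They were 2.05 after 2 h (1.16 to 3.72), 1.97 after 4 h (1.09 to 3.64), 2.63 after 6 h (1.53 to 4.66) and 2.26 with camptothecin (1.29 to 4.08). The 2 h ratio was larger than in 99.3% of the regions called in both libraries. In knockout cells the prexasertib ratios ran from 0.811 to 1.04, with intervals that include 1, and the camptothecin ratio was 0.583 (0.350 to 0.958). With DMSO the parental height was 0.444 times that in knockout cells (0.248 to 0.769), and 2.86% of the regions called in both had a smaller ratio. All 4 parental ratios rest on the single parental DMSO value of 20, whose exact interval runs from 12.2 to 30.9.

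At LCK region 3 width and height did not always move together. The parental peak measured 567 bp with DMSO. Prexasertib libraries gave 284 bp at 2 h, 318 bp at 4 h and 513 bp at 6 h, narrower in each case, and the camptothecin library 726 bp. Knockout widths were 364 bp with DMSO, 538, 532 and 700 bp with prexasertib and 401 bp with camptothecin. Its highest summit stayed within 70 bp over the 10 libraries.

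IL7R region 1, at chr5:35856483-35857198, lies 0.483 to 1.20 kb into the interval and was called in 5 libraries, all with prexasertib. The pileups were 12 and 12 in the parental 2 h and 4 h libraries and 14, 12 and 14 in the knockout 2, 4 and 6 h libraries, and the −log10 q lay between 3.91 and 4.71. Neither the DMSO nor the camptothecin libraries called it, and neither did the parental 6 h library. IL7R region 2, at chr5:35884298-35885180, lies past the interval, on the side of CAPSL. Its parental pileup was 24 with DMSO and 26 after 2 h of prexasertib, it was not called at 4 h, and it stood at 12 after 6 h and at 13 with camptothecin. The knockout pileup was 30, 40, 25, 35 and 21 in the order DMSO, 2, 4 and 6 h of prexasertib and camptothecin. Of the 9 libraries that called it, the parental 6 h and camptothecin libraries were the lowest, and every knockout value lay above them.

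At IL7R region 2 the parental height after 6 h was 0.536 times that with DMSO (0.244 to 1.11), and with camptothecin it was 0.612 times (0.286 to 1.25). Both intervals include 1, while 0.491% and 0.503% of the regions called in both libraries had smaller ratios. After 6 h the parental height was 0.448 times that in knockout cells (0.212 to 0.885), and 0.182% of the shared regions had a smaller ratio. Together with CD2 region 2 it was a region near these genes that was lower after 6 h of prexasertib in parental cells, where the median of all always-called regions was higher by 1.05 on the log2 scale. The position in these low ranks was seen in the data and was not tested.

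PTCRA region 1, at chr6:42883470-42883929 and 0.470 to 0.929 kb into the interval, was called in 3 libraries at pileups of 10, 11 and 13, those of parental cells with camptothecin and of knockout cells with DMSO and after 2 h. The highest of all 22 regions by summit height, and by mean −log10 q, was PTCRA region 2, at chr6:42896736-42897924, which begins 2736 bp past the right end of the interval, on the side of CNPY3. Its parental pileup was 66 with DMSO, 76 at 2 h, 82 at 4 h and 145 at 6 h of prexasertib, and 117 with camptothecin. The knockout pileup was 90 with DMSO, 116, 132 and 116 with prexasertib and 74 with camptothecin. By the deposited fold CD3 region 6 stood above it in 8 of the 10 libraries, for example at 13.0 against 9.41 in the parental 6 h library. The height of PTCRA region 2 exceeded that of 93.5% to 98.5% of the regions called in the same library. The parental ratios to DMSO were 1.27 after 2 h (0.904 to 1.8), 1.53 after 4 h (1.09 to 2.15), 2.35 after 6 h (1.75 to 3.20) and 2.00 with camptothecin (1.47 to 2.75). By the deposited fold the log2 changes were 0.20, 0.15, 0.39 and 0.25, over 1.5 times smaller as ratios after 6 h and with camptothecin, where the local background stood at 14.5 and 12.8 against 8.31 with DMSO. The knockout ratios ran from 0.754 with camptothecin (0.547 to 1.04) to 1.26 after 4 h (0.959 to 1.67), with no interval that left out 1. With DMSO the parental height was 0.716 times the knockout height (0.513 to 0.994). It was 1.64-fold after 6 h (1.27 to 2.11) and 1.90-fold with camptothecin (1.41 to 2.58). As log2 ratios of parental over knockout these heights were -0.48, 0.71 and 0.93, and by the deposited fold the ratios were smaller, -0.16, 0.18 and 0.3. The parental changes at this region were of middling size, with 69.3% and 68.5% of the shared regions changed less after 6 h and with camptothecin.

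**Figure D4:**
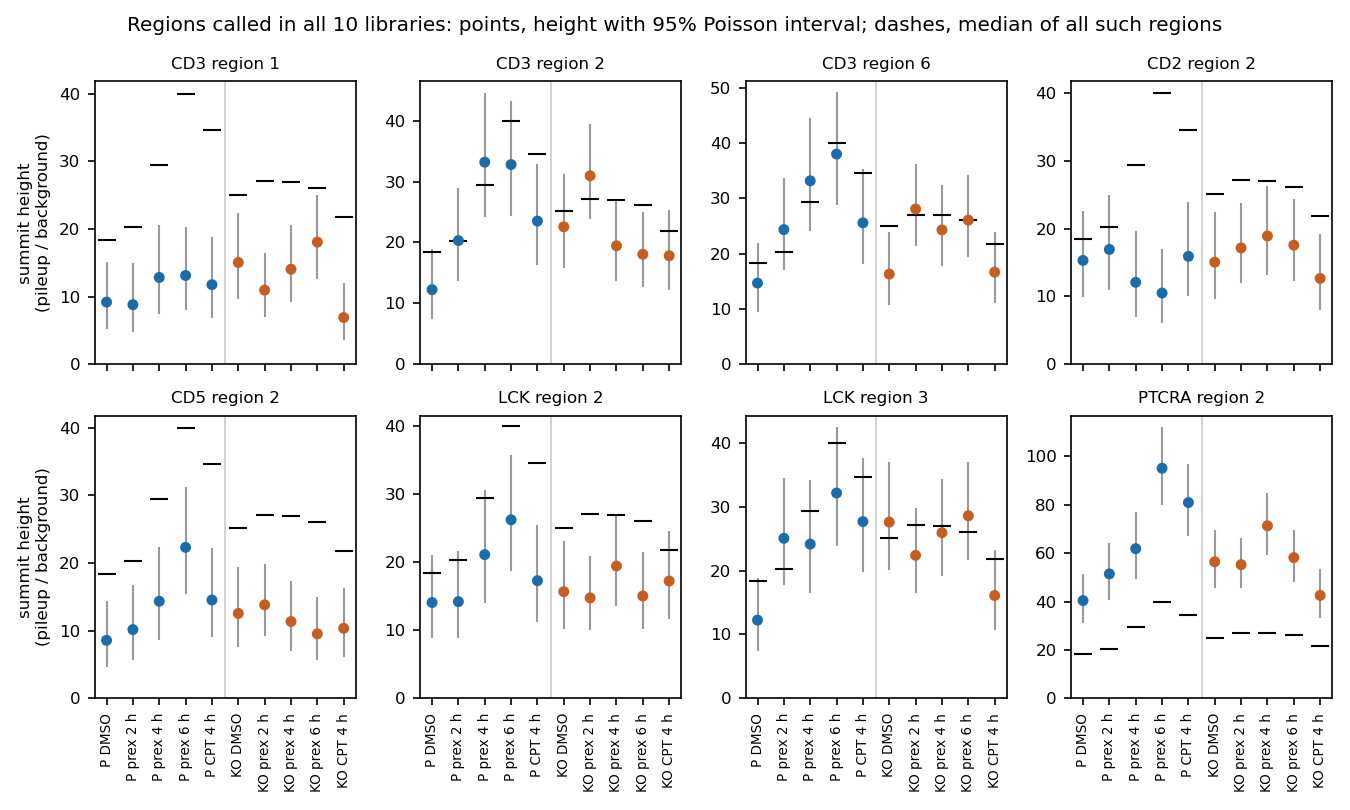
Summit height (pileup over background, linear axes that start at 0 and differ in scale) of the 8 regions called in every library, by library, with exact 95% Poisson intervals of the pileup; dashes give the median of all regions called everywhere. Parental points (blue) of CD3 regions 2 and 6, LCK region 3 and PTCRA region 2 are lowest with DMSO, CD2 region 2 is lowest after 6 h of prexasertib, and PTCRA region 2 is the only panel with all points above the dashes.

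Over the list, each treated parental library called more of these regions than the parental DMSO library did, and the regions added lay at CD3, CD4, CD5, CD7, LCK, IL7R and PTCRA. Gained here means a peak in the treated library and none in the DMSO library of that genotype, and lost the reverse. The parental DMSO library left 12 regions uncalled. Of these, 6 were gained after 2 h of prexasertib, where the share over all regions was 12.8%. The 4 h library gained 6 (20.1% of all regions), the 6 h library 8 (43.2%) and the camptothecin library 6 (35.8%). Of the 10 regions called with DMSO, 1 was lost after 2 h (17.7% of all regions) and 1 after 4 h (13.4%), CD3 region 4 and IL7R region 2 respectively. None was lost after 6 h (9.08%) or with camptothecin (8.64%). With all lists at equal length 6, 3, 2 and 2 of 12 were gained, where the shares over all regions were 13.1%, 13.1%, 15.2% and 13.6%. Lost were 1, 1, 2 and 1 of 10, against 17.1%, 17.2%, 19.7% and 17.6% of all regions. The 2 h gain was the same and the other gains were smaller. The losses after 6 h and with camptothecin were larger, as were the shares lost over all regions. At a −log10 q of at least 10, 2, 2, 7 and 2 of 18 were gained, against 4.85%, 10.7%, 20.6% and 17% of all regions.

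In knockout cells only 4 of the 22 regions were not called with DMSO. Of these, 3 were gained after 2 h of prexasertib (36.6% of all regions), 1 after 4 h (25.2%), 2 after 6 h (33.7%) and 1 with camptothecin (15.8%). Of the 18 called with DMSO, 2 were lost after 2 h (9.4%), 5 after 4 h (13.5%), 2 after 6 h (11.3%) and 5 with camptothecin (19.2%). At 4 h and with camptothecin more were thus lost than gained. With equal list lengths 0, 1, 2 and 0 of 9 were gained, against 10.4%, 10.5%, 10.7% and 11.1% of all regions, and 3, 3, 3 and 2 of 13 were lost, against 12.9%, 13.3%, 13.5% and 14.4%.

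Absent with DMSO and present in all 4 treated parental libraries were CD3 region 5, CD4 region 3 and LCK region 1, 3 of 12, where the share over all regions was 5.06%. Leaving out the truncated 4 h library added CD5 region 1, for 4 of 12 against 6.7%. In knockout cells it was 0 of 4 (4.19% of all regions), and without the 4 h library 1 of 4, CD3 region 5. Of the 3 parental regions, CD4 region 3 and LCK region 1 were also called in the knockout DMSO library, at pileups of 21 and 32. Both lie outside the intervals without the added 5 kb. At a −log10 q of at least 10 the parental count was 2, of other regions, CD3 region 2 and LCK region 3. Both were called with DMSO below that threshold, and no share over all regions is given for it.

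Over the 8 regions called in all libraries, the median log2 height change in parental cells was 0.30 for the 2 h, 0.68 for the 4 h and 1.30 for the 6 h prexasertib library and 0.78 for the camptothecin library, where the 11565 regions of the whole set with a recovered height in every library had 0.15, 0.62, 1.05 and 0.85. By the deposited fold, which is over the local background, the medians of the 8 were smaller, 0.14, 0.15, 0.65 and 0.22. Without the added 5 kb the median height changes were 0.15, 0.59, 0.9 and 0.36, none of them above the value over all regions. Of the 8, 7 were higher after 2, 4 and 6 h and 8 with camptothecin. At least 1.5-fold higher were 3 after 2 h (10.3% of all), 6 after 4 h (54.4%), 6 after 6 h (78.4%) and 5 with camptothecin (73.6%). After 6 h and with camptothecin these counts were near the shares over all regions. In width the 8 regions were broader by a median log2 of 0.22, 0.21, 0.12 and 0.36, against 0.00, 0.11, 0.24 and 0.24 over all.

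In knockout cells the median log2 height changes were 0.05, 0.11 and 0.05 after 2, 4 and 6 h and -0.31 with camptothecin, against 0.13, 0.11, 0.06 and -0.20 over all regions. Of the 8, 4, 4 and 5 were higher with prexasertib and 2 with camptothecin. At least 1.5-fold higher were 1 after 2 h (6.03%), 0 after 4 h (5.35%), 1 after 6 h (4.24%) and 0 with camptothecin (0.977%), and the region in both cases was CD3 region 6. At least 1.5-fold lower with camptothecin were CD3 region 1 and LCK region 3, 2 of 8, against 11.8% of all regions. The sign of the 4 and 6 h medians depended on the regions taken, since over regions called in the treated and the DMSO library the 3 medians were 0.02, -0.09 and -0.01.

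**Figure D5:**
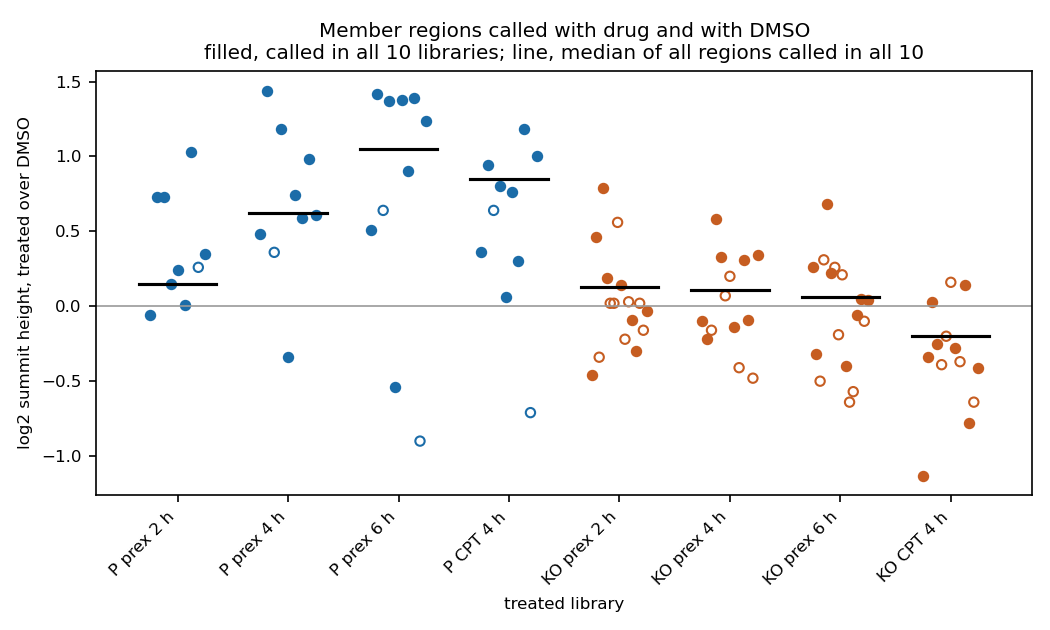
Log2 change of summit height, treated over DMSO of the same genotype, for each region near the T cell genes called in both libraries (points; filled where called in all 10 libraries; blue, parental; orange, knockout), with the median of all regions called everywhere as a black line. The 10 parental points after 6 h of prexasertib have a median of 1.07, with 2 points below 0, CD2 region 2 and IL7R region 2, and the knockout points spread around 0 with prexasertib and mostly lie below 0 with camptothecin.

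Compared at the same condition, with DMSO no region of the list was called in parental cells only (6.84% of all regions called in either line) and 8 of 18 in knockout cells only (26.7%). The 8 were CD3 region 3, CD2 region 3, CD4 regions 2 and 3, CD5 region 1, CD7 region 1, LCK region 1 and PTCRA region 1. After 2 h of prexasertib 1 of 20 was parental only (3.5%) and 5 knockout only (37.3%). After 4 h 3 of 17 were parental only (7.78%) and 2 knockout only (23.4%), after 6 h 1 of 19 (16.9%) and 1 (17.3%), and with camptothecin 2 of 16 (22.5%) and 0 (10.7%). More regions were thus knockout only than parental only with DMSO and at 2 h. At a −log10 q of at least 10 the 4 h counts were 0 parental only and 5 knockout only. With equal list lengths it was 4 knockout only and 1 parental only with DMSO, and at 2 h the order turned, with 5 parental only and 0 knockout only. No share over all regions is given under these settings. Whether the order turned over all regions too is therefore not shown.

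The median log2 height ratio of parental over knockout over the 8 regions was -0.52 with DMSO, -0.15 at 2 h, 0.01 at 4 h and 0.63 at 6 h of prexasertib, and 0.55 with camptothecin, against -0.42, -0.38, 0.10, 0.55 and 0.64 over all regions. At least 1.5-fold lower in parental cells were 3 of 8 with DMSO (32.3% of all) and 1 after 2 h (28.4%). At least 1.5-fold higher were 4 after 6 h (47%) and 4 with camptothecin (55%). The members with DMSO were CD3 regions 1 and 2 and LCK region 3. The median at 4 h was near 0 and was -0.10 over the local background and -0.47 before division by the background.

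The other genes of the pathway were given the same count. The list of 23 genes, among them the kinases ZAP70 and FYN, the adaptors LAT and LCP2, the chain CD247 and the co-receptor genes CD8A and CD8B, used rounded hg19 intervals from general knowledge with 5 kb added. They held 70 regions, of which 22, or 31.4%, were called in all 10 libraries. In 17 of the 23 genes some region was called in every library, and CTLA4 had none. ZAP70 was called in 9 libraries, missing from the parental DMSO library. With DMSO 35 of the 70 were called in parental and 39 in knockout cells, and the rest could be gained. Parental gains were 10, 5, 8 and 9 after 2, 4 and 6 h and with camptothecin, where 12.8%, 20.1%, 43.2% and 35.8% of all uncalled regions were gained. Parental losses were 8, 8, 5 and 4 of 35, where the shares lost over all regions were 17.7%, 13.4%, 9.08% and 8.64%. Knockout gains were 16, 11, 11 and 4, where the overall shares were 36.6%, 25.2%, 33.7% and 15.8%. Knockout losses were 6, 5, 6 and 7 of 39, where the overall shares were 9.4%, 13.5%, 11.3% and 19.2%. The median log2 height changes of their always-called regions were 0.05, 0.46, 0.56 and 0.76 in parental and 0.17, 0.00, 0.11 and -0.25 in knockout cells.

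As a check of the label T lymphoblast, 6 of the 8 intervals held a called region in every library, the CD4 interval in 9 and the CD7 interval in 5. Without the added 5 kb it was 3 of the 8 intervals. Among 14 markers of other cell types, 3 had a region in every library with 5 kb added: PAX5, CD14 and COL1A1. The B cell gene CD79A had a called region in 9 libraries with 5 kb added, as many as the CD4 interval. Without the added 5 kb it was PAX5 and COL1A1, CSF1R was called in 3 libraries, CD79B and SPI1 in 1 each, and CD79A, MS4A1, CD14, LYZ, MPO, CD33 and ALB in none. A called region near a gene thus did not by itself separate T lineage genes from the rest. The part of other cell types in the peaks was not tested.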

How the data were processed

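ATAC-seq was measured in 10 libraries, and each had 1 peak list. The build was hg19. MACS2 2.1.2 is the peak caller among the tools named, per the submitters' processing notes, which also list BWA 0.7.17, Picard 2.9.2 and SAMtools 1.8, with Trimmomatic 0.39 and Trim Galore 0.6.2. Their settings are not given in the sources used here, including any shift of reads for the transposase or removal of duplicates. Files are in narrowPeak format without a header. The deposited fold is the enrichment of a summit over its local background, and the deposited −log10 p and −log10 q values belong to the same summit. The deposited score, −log10 q times 10, was not used for results. The deposited start and end of a peak gave its width and position.

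Peaks on chromosomes 1 to 22 and X were merged wherever they overlapped by 1 bp or more. Width is that of the longest peak of a library in a region. Fold, −log10 q and pileup are each the largest over its summits there, so they need not come from 1 summit. The position of the highest summit is that of the largest −log10 q. The pileup is the whole number that fits the deposited fold and −log10 p, within 0.001 on the latter, and was found for at least 99.71% of summits in any list. Dividing it by the smallest background of the list gave the height. Groups were taken from the sample titles. Each treated library was compared with DMSO of its genotype and each parental library with the knockout library of the same condition, with no test. Python 3.11.15, numpy 2.4.6, pandas 2.3.3, scipy 1.17.1 and matplotlib 3.10.9 were used, and the steps were tested on simulated data. The genes, lists and rules were chosen with earlier results of these data known. Described in full were the region with the highest mean −log10 q in each interval, those nearest the starts, those called in 1 genotype only and those gained at a −log10 q of at least 10. Other regions were given as counts and ranges, and the values of CD3 regions 2 to 5, CD4 region 2 and CD5 region 2 were added after they were seen. Alternatives were a stricter −log10 q, equal list lengths, a reciprocal overlap, no added 5 kb and other measures of height and width. A few items of the other gene lists are not reported here by name.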

Additional observations from a re-analysis of the deposited data

Results flagged for a closer look

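Over the 22 regions, parental and knockout cells moved in opposite directions in 3 summaries. Regions gained minus regions lost came to 5 for the parental and -4 for the knockout 4 h prexasertib library, and to 6 for the parental and -4 for the knockout camptothecin library. With camptothecin the median log2 height change of the 8 always-called regions was 0.78 against -0.31. The parental DMSO library left 12 regions that could be gained and 10 that could be lost, the knockout DMSO library 4 and 18. Over all regions 3983 were gained and 2109 lost in the parental 4 h library, 3913 and 2701 in the knockout 4 h library, 7092 and 1357 with camptothecin in parental and 2464 and 3827 in knockout cells, and the camptothecin height changes were 0.85 and -0.20. At a −log10 q of at least 10 the 4 h contrast was gone, with 2 gained and 2 lost in parental and 3 gained and 1 lost in knockout cells. Over all regions 10.7% were gained and 7.54% lost in parental cells at that threshold, and 8.42% and 7.57% in knockout cells. With 1 library per group the differences between genotypes were not tested. The background pileups behind them were 1.33 in the parental and 1.85 in the knockout 4 h library, and 1.45 and 1.74 with camptothecin, and the part of depth in these differences was not tested.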

How the results depend on the processing

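No paired analysis was possible because there was 1 library per group and no replicate to pair. Counts of called regions depended on the threshold, and the height changes were not recomputed at the stricter one. At a −log10 q of at least 10 the regions called from DMSO to camptothecin were 4, 6, 4, 9 and 5 in parental and 7, 9, 9, 9 and 4 in knockout cells, and 2 were called everywhere. At that threshold the parental gains were 2, 2 and 2 of 18 after 2 h, 4 h and camptothecin, against 4.85%, 10.7% and 17% of all regions. The parental losses were 0, 2, 2 and 1 of 4, against 16.5%, 7.54%, 4.47% and 3.96%. The knockout gains were 3 of 15 after 4 h and 0 of 15 with camptothecin, against 8.42% and 3.98% of all regions. The knockout losses were 1, 1, 1 and 3 of 7, against 4.65%, 7.57%, 6.69% and 17.6%. Parental-only regions at that threshold were 1, 0, 0, 3 and 1 from DMSO to camptothecin, and knockout-only regions 4, 3, 5 and 3 from DMSO to 6 h. No share over all regions is given at that threshold for the counts per library, everywhere or in 1 genotype only.

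With lists of equal length 10 regions were called in the parental 6 h and 10 in the knockout 2 h library. Parental gains were then 3, 2 and 2 of 12 after 4 h, 6 h and camptothecin, against 13.1%, 15.2% and 13.6% of all regions. Parental losses were 2 and 1 of 10 after 6 h and camptothecin, against 19.7% and 17.6%. Knockout gains were 0 of 9 after 2 h and 0 of 9 with camptothecin, against 10.4% and 11.1% of all regions. Knockout losses were 3 of 13 after 4 h and 2 of 13 with camptothecin, against 13.3% and 14.4%. Parental-only counts were 1, 5 and 2 with DMSO and after 2 and 6 h, and knockout-only counts 4, 0, 4 and 2 with DMSO, after 2 and 6 h and with camptothecin. No share over all regions is given for these parental-only and knockout-only counts. Without the added 5 kb 6, 9 and 10 regions were called in the parental DMSO, 2 h and camptothecin libraries and 11, 9 and 8 in the knockout DMSO, 4 h and camptothecin libraries. The losses were then 0 of 6 in parental cells at 4 h, against 13.4% of all regions. In knockout cells they were 1, 3 and 1 of 11 after 2, 4 and 6 h, against 9.4%, 13.5% and 11.3%. With a reciprocal overlap of 50% the parental losses were 3, 2 and 2 after 4 h, 6 h and camptothecin. The knockout gains were 5 after 2 h and 3 with camptothecin, and the knockout losses 4 after 2 h. No share over all regions is given for the reciprocal overlap, so its counts do not set these regions apart from the rest.

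Among the median log2 height changes only the small knockout prexasertib values changed sign. The parental values were smaller by the deposited fold, 0.14, 0.15, 0.65 and 0.22, and without the added 5 kb, 0.15, 0.59, 0.9 and 0.36. The knockout 2 h value was -0.09 without the added 5 kb and -0.01 by the deposited fold. The knockout 4 h value was -0.09 without the added 5 kb and -0.09 over regions called in both lists. The knockout 6 h value was -0.01 over regions called in both lists. The parental over knockout ratio at 4 h was -0.10 by the deposited fold and -0.47 by the pileup before division, and at 2 h it was -0.66 by the pileup. The cause was not tested. Leaving out the 4 h library raised the knockout regions called in every treated library and not with DMSO from 0 to 1. Leaving out the truncated parental 4 h library added IL7R region 2 to the always-called regions, for 9. The summed width of all peaks left every median width change on the same side. The comparison over regions called in both lists and the settings for regions called in every treated library were chosen after seeing the data. Depth limits single regions: the counting interval of the height ratio left out 1 for 1, 4, 6 and 4 of the 9, 9, 10 and 10 regions called in both libraries in the parental comparisons, and for 1, 0, 0 and 2 of 16, 13, 16 and 13 in the knockout ones. The share of all regions with such an interval was not computed, so these counts do not set the regions near these genes apart from the rest.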
